A study of Mus musculus with 6 samples.

Results

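Cells detect foreign or misplaced nucleic acid in the cytosol with a small group of receptors and their adaptors, and 10 of these genes were followed here in cultured enteric glial cells (EGCs): Ddx58, Ifih1, Dhx58, Zbp1, Tmem173, Mb21d1, Aim2, Eif2ak2, Mavs and Ifi204. They were chosen by gene symbol for their textbook roles, with earlier results of these data known. Each matched 1 of the 46603 gene identifiers in the count data. The libraries were 3 control and 3 LPS-treated cultures, in which poly(A) RNA was sequenced. C57BL/6J mouse embryos gave whole gut at embryonic day 14.5, which was dissociated, grown as free-floating neurospheres and then plated to confluence, and no cell sort or transgene is described, so the cultures can hold other cells of the gut wall. LPS cultures received lipopolysaccharide, a component of the outer membrane of Gram-negative bacteria, at 100 ng/ml for 12 h. Control cultures received no LPS, and both groups shared strain, embryonic age and culture steps. The labels numbered the libraries 1 to 3 in each group but did not say whether a number stood for a separate litter or preparation, so p-values measure the spread between these libraries, which may be technical.

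RIG-I (Ddx58) and MDA5 (Ifih1) are helicases that bind double-stranded RNA and pass the signal to MAVS on mitochondria, while LGP2 (Dhx58) is a related helicase without the signalling domains. Cytosolic DNA is bound by cGAS (Mb21d1), which makes a cyclic dinucleotide for its receptor STING (Tmem173), and by the PYHIN proteins AIM2 and IFI204. Protein kinase R (Eif2ak2) halts translation when it meets double-stranded RNA, and ZBP1 binds Z-form nucleic acid and can start cell death. Many of these genes are known as interferon-stimulated genes, and LPS itself is read at the cell surface and in endosomes by TLR4, which is not a nucleic acid sensor.

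The 6 libraries held between 18775316 and 23664312 counts. Levels are given as CPM, counts divided by the composition-corrected library size in units of 1e+06, and a gene was called when its edgeR adjusted p was under 0.05. Of the 15226 genes tested, 9.09% were called higher and 6.72% lower in LPS, and the median log2 fold change was -0.02. Of these calls 57.5% were higher, but 39.8% with upper-quartile scaling and 32.4% with library size alone. In mixed cultures of this kind, fewer cells of a type and less RNA per cell cannot be told apart. The defining glial marker Sox10 stood at 73.7 to 101 CPM in control and 75.9 to 78.2 CPM in LPS libraries. Of the 9 glial markers tested, S100b was called lower (log2 -1.91, edgeR adjusted p = 0.0238) and Fabp7 higher (log2 1.29, edgeR adjusted p = 0.0122), calls that were lost in 4 and 3 of 15 alternative settings (edgeR adjusted p up to 0.0906 and 0.0723). With both libraries numbered 3 left out 6 of the 9 were called lower and 2 higher, against 20.4% and 22.6% of all genes. All 14 macrophage markers had counts in every library, with a summed level of 4444, 5815 and 13816 CPM in control libraries 1, 2 and 3 and of 4191, 5437 and 21261 CPM in LPS libraries 1, 2 and 3. This sum is mostly Lyz2. Adgre1 was the 1 macrophage marker called, at 159, 229 and 472 CPM in control and 952, 1259.5 and 3696 CPM in LPS libraries (log2 2.78, edgeR adjusted p = 0.0452). Its call was lost without control replicate 1 or 2 or LPS replicate 1 or 2 (edgeR adjusted p 0.0663 to 0.169). Mrc1 lay lower in every LPS library without being called (log2 -3.08, edgeR adjusted p = 0.145). With the replicate number as a block 4 of the 14 were called higher and 4 lower, against 15.4% and 14.9% of all genes, and with both libraries numbered 3 left out 3 and 7. The libraries numbered 3 were the highest in both groups, and this moved with several sensor genes, as given beside them. Summed levels reached 15589 to 16281 CPM in control and 15110 to 15828 CPM in LPS for mesenchymal markers, 2347 to 2596 and 682 to 981 CPM for smooth muscle, 697 to 946 and 724 to 770 CPM for glia, and 270.4 to 477 and 287 to 460.3 CPM for neurons. Of 8 mesenchymal markers Dcn and Pdgfra were called higher (log2 0.90 and 0.50, edgeR adjusted p = 0.0118 and 0.0114), against 9.09% of all genes, and 0 lower. Each call held in 11 of 15 alternative settings. With both libraries numbered 3 left out 2 mesenchymal markers were called higher and 4 lower, against 22.6% and 20.4% of all genes. Of 8 smooth muscle markers 7 were called lower, against 6.72% of all genes, with a median log2 fold change of -1.83, and 4 without control replicate 2, against 0.72%. Endothelial markers summed to 21.1 CPM at most and epithelial markers to 9.83 CPM at most, and of the T, B and dendritic cell markers reported here Cd3e and Xcr1 were at 0 counts in all libraries, Cd79a and Flt3 at 2 counts or fewer, and Zbtb46 at 10.3 to 10.6 CPM in control and 6.42 to 7.58 CPM in LPS libraries (log2 -0.62, edgeR adjusted p = 0.0265).

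LPS cultures carried more transcript of 7 of the 10 genes. The 7 called higher were Zbp1, Dhx58, Ifi204, Ifih1, Ddx58, Eif2ak2 and Tmem173, against 9.09% of all genes called higher by the same edgeR test. None was called lower by edgeR, at an unadjusted p under 0.05, or by DESeq2 or limma-voom. Mb21d1, Aim2 and Mavs were not called. For the same 7 genes every LPS library lay above every control library, a pattern held by 19.3% of all genes. The median log2 fold change of the 10 genes was 2.68, and 6 of them were called and at least 4-fold higher, against 3.05% of all genes.

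**Figure D1:**
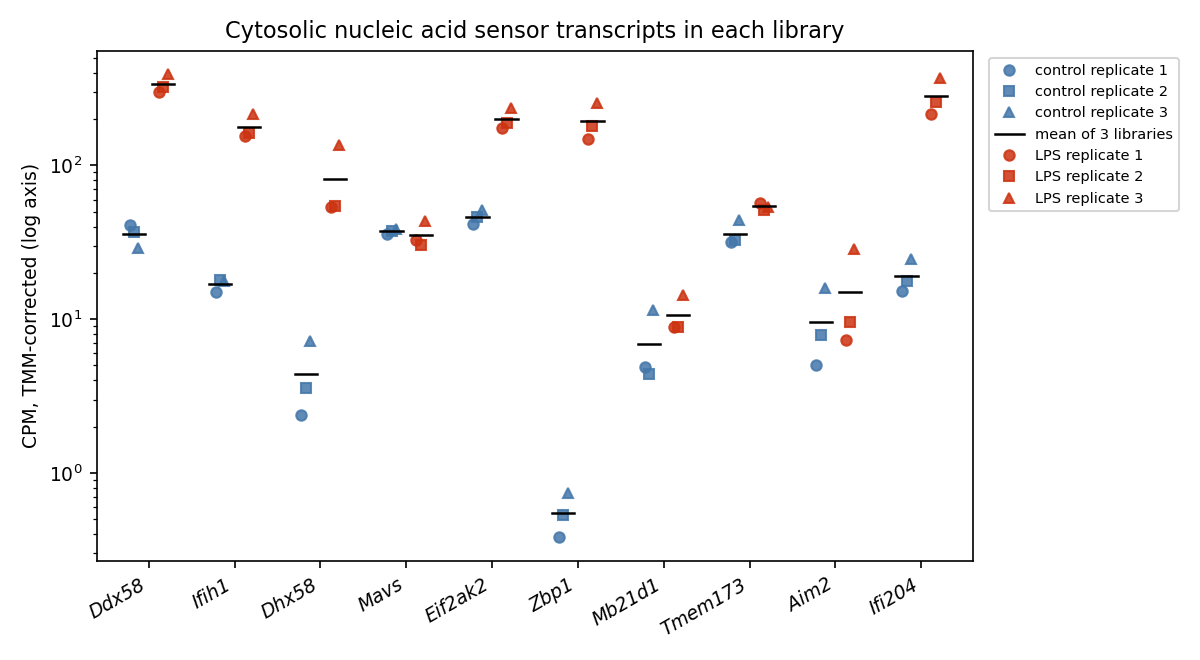
Level of the 10 sensor genes in each library (CPM corrected for library composition, log axis), control in blue and LPS in red, with a symbol for each replicate number and a bar at the mean of 3 libraries. Blue and red points are apart for 7 genes and interleave for Mavs, Mb21d1 and Aim2, and Zbp1 starts from 0.381 to 0.743 CPM.

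**Figure D2:**
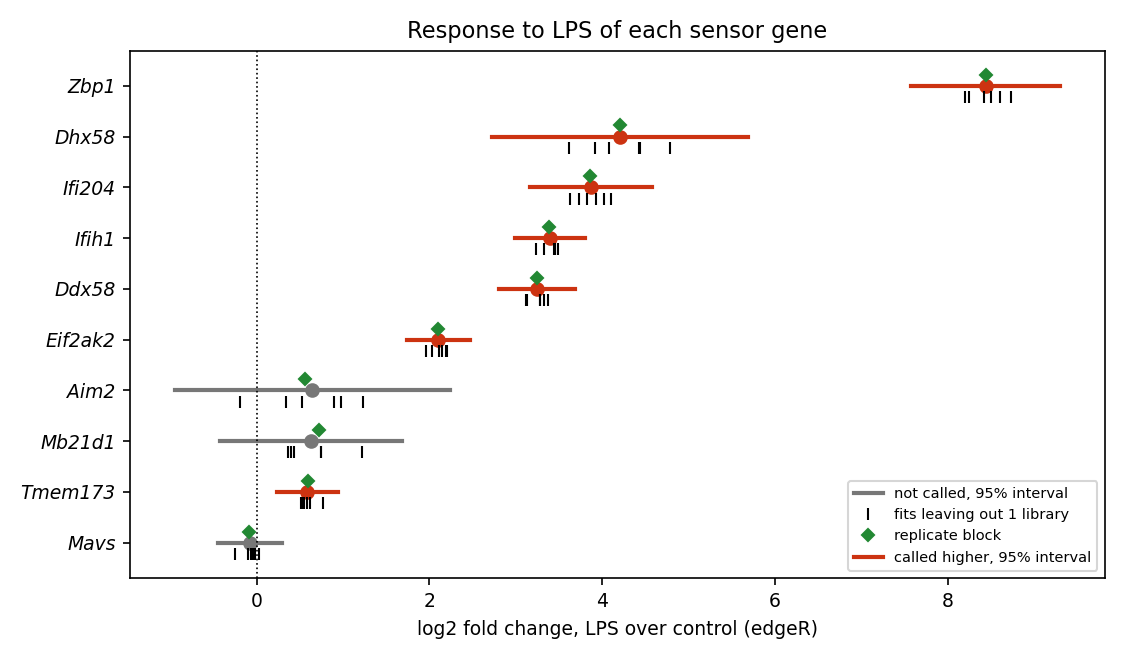
Log2 fold change of LPS over control for each gene from edgeR, with the 95% interval as a bar, the fits that leave out 1 library as ticks and the fit with the replicate number as a block as a diamond. Zbp1 stands at 8.44 and Mavs at -0.08, and the ticks of Aim2 and Mavs fall on both sides of 0.

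Sequence at the gene starts is shown first for the members in which an interferon regulatory factor (IRF) element was found, because IRF proteins are the factors that these receptors are known to activate. RefSeq windows of GRCm38.p6, from 250 bases before to 50 bases after the start, were present in the table for Ddx58, Ifih1, Mb21d1, Aim2, Eif2ak2 and Mavs. The letters GAAANNGAAA, searched on both strands, occurred in 3 of these 6 windows and in 3.44% of all 32851 windows. The 3 were Ddx58, Ifih1 and Eif2ak2, all called higher, and each match lay in an annotated exon within the first 50 bases after the start. The 3 stretches follow, 5′ to 3′ on the strand of the gene, with the matched letters in capitals, and in Ddx58 the element reads on the other strand.
Ddx58: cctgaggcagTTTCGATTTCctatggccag
Ifih1: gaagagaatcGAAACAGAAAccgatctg
Eif2ak2: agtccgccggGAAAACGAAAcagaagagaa
They cover chr4:40239804-40239833, chr2:62646206-62646233 and chr17:78882535-78882564, all on the minus strand, and the match began 3, 33 and 19 bases from the start. In Ddx58 and Eif2ak2 it lay in the 5′ untranslated part. The windows of Mb21d1, Aim2 and Mavs did not hold these letters. No window was available for Dhx58, Zbp1, Tmem173 and Ifi204, all called higher, so the search did not cover every called gene. A STAT-type element, TTCNNNGAA, which reads the same on both strands, was found in the Eif2ak2 window alone, beginning 178 bases before the start, and in 8.30% of all windows. The NF-κB consensus was in none of the 6 windows and in 4.51% of all. A match describes letters and does not show binding.

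The RNA helicases rose together. Ddx58 (chr4:40203773-40239828, minus strand, exons 7050 bp), which encodes RIG-I, stood at 41.0, 36.8 and 29.0 CPM in control libraries 1, 2 and 3. With LPS it stood at 300.4, 322 and 393 CPM. The groups did not overlap, the lowest LPS library being far above the highest control library. The change was 9.50-fold (log2 3.25, SE 0.18, 95% interval 2.81 to 3.69, edgeR adjusted p = 0.000418). Its control level was lowest in replicate 3, the library with the highest macrophage marker sum of its group, whereas the LPS libraries stood in the order of that sum, highest in replicate 3; the part of macrophage RNA was not tested.

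Ifih1 (chr2:62595798-62646255, minus strand, exons 8165 bp) encodes MDA5, the receptor of long double-stranded RNA. Its level was 15.0, 17.9 and 17.8 CPM in control and 155, 163 and 216 CPM in LPS libraries. Control libraries lay close together, with a coefficient of variation of 9.80%, and the LPS libraries stood in the order of their macrophage marker sum. Ifih1 was 10.5-fold higher with LPS (log2 3.40, SE 0.17, edgeR adjusted p = 0.0003), close to Ddx58 on the same scale, and the intervals of the pair, 2.99 to 3.81 and 2.81 to 3.69, overlapped.

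Dhx58 (chr11:100694884-100704271, minus strand, exons 3272 bp) encodes LGP2, a regulator of the other 2 helicases. It was scarce in control libraries, at 2.37, 3.58 and 7.23 CPM, and reached 53.7, 54.5 and 136 CPM with LPS. Both libraries numbered 3 were well above the others of their group, as were the macrophage markers, and the part of macrophage RNA in this was not tested. The log2 fold change was 4.21 (18.5-fold, SE 0.61, interval 2.72 to 5.69, edgeR adjusted p = 0.0108). Within replicate numbers 1, 2 and 3 the log2 difference was 4.50, 3.93 and 4.24, and with both libraries numbered 3 left out the fit gave 4.21 (edgeR adjusted p = 4.72e-06). Without control replicate 2 the call was lost (4.09, edgeR adjusted p = 0.0695). An antisense gene shares 4.31% of the Dhx58 exon bases, and how the counting treated strand is not given in the sources used here.

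The adaptor of these helicases did not follow them. Mavs (chr2:131234063-131248025, plus strand, exons 3345 bp) stood at 36.0, 37.6 and 38.5 CPM in control libraries and at 32.6, 30.2 and 43.5 CPM in LPS libraries. Of the LPS libraries 2 lay below all controls and 1 above, so the groups overlapped. The log2 fold change was -0.08 (SE 0.15, edgeR adjusted p = 0.770), with a 95% interval of -0.44 to 0.29, which leaves out a change as large as that of any helicase. Its sign turned without LPS replicate 2 (0.027, edgeR adjusted p = 0.932).

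Because a ratio of 2 genes within a library depends little on how libraries are scaled, each helicase was also set against Mavs in CPM per kilobase of exon, with 0.1 added to both. The Ddx58 level was 0.544, 0.469 and 0.363 times that of Mavs in control libraries 1, 2 and 3. In LPS libraries it was 4.33, 5.01 and 4.27 times that of Mavs. On this scale, which divides by all annotated exon bases of a gene, the receptor transcript was below the adaptor transcript in every control library. It was above it in every LPS library. In CPM, without the length, Ddx58 was above Mavs in control library 1 (41.0 against 36.0). In control libraries 2 and 3 it was below (36.8 against 37.6 and 29.0 against 38.5). Ifih1 moved from 0.178 to 0.202 times Mavs in control to 1.94 to 2.19 times in LPS, and Dhx58 from 0.0759 to 0.199 times to 1.68 to 3.19 times. The log2 ratios differed by 3.32 for Ddx58, 3.42 for Ifih1 and 4.20 for Dhx58, each with an exact permutation p of 0.1, two-sided, the smallest that 3 libraries against 3 can give. Adjusted over the 4 ratios tested, the p was 0.133. The size for the scarcest gene depends on the value added, Dhx58 giving 3.47 with 1 in place of 0.1.

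**Figure D3:**
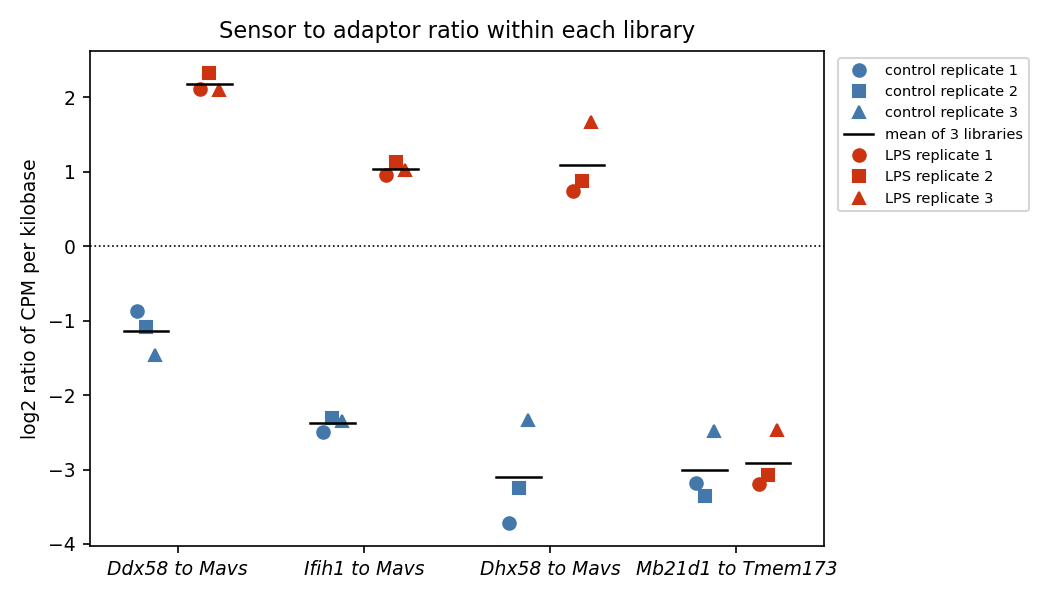
Log2 ratio of sensor to adaptor (CPM per kilobase of exon) within each library, control in blue and LPS in red, with a symbol for each replicate number and a bar at the mean of 3 libraries. The 3 helicase ratios lie below 0 in every control library and above 0 in every LPS library, while the Mb21d1 to Tmem173 ratio overlaps between groups.

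Eif2ak2, the gene of protein kinase R (chr17:78852564-78882573, minus strand, exons 5113 bp), also rose. It stood at 41.3, 46.3 and 51.3 CPM in control and at 174, 188 and 235 CPM in LPS libraries. No control library came near the LPS range, and in both groups the libraries stood in the order of their macrophage marker sum, whose part was not tested. The increase was 4.30-fold (log2 2.10, SE 0.15, interval 1.74 to 2.47, edgeR adjusted p = 0.00112), and the 3 within-number log2 differences lay between 2.02 and 2.20. Genes on the other strand share 4.32% of its exon bases.

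Zbp1 (chr2:173206612-173218923, minus strand, exons 3529 bp), the sensor of Z-form nucleic acid, changed most of the 10 genes. Control libraries 1, 2 and 3 held 9, 12 and 18 counts, or 0.381, 0.531 and 0.743 CPM. LPS libraries 1, 2 and 3 held 149, 180 and 255 CPM, that is 3026, 3224 and 4869 counts. Zbp1 thus went from near the detection floor, which lay at 0.124 to 0.167 CPM for 3 counts, to a length-corrected level at percentile 94.1 of all genes tested. The edgeR log2 fold change was 8.44 (348-fold, SE 0.35, interval 7.58 to 9.31, adjusted p = 0.000213), and 0.204% of tested genes had a larger one. The fold rests on few control counts, but each within-number log2 difference was between 8.40 and 8.62. In both groups the libraries stood in the order of their macrophage marker sum, highest in replicate 3, and with both libraries of that number left out the log2 fold change was 8.50 (edgeR adjusted p = 8.8e-07). A stricter filter that asked for 10 or more counts per library dropped Zbp1, because control replicate 1 fell below it.

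Tmem173 (chr18:35733679-35740554, minus strand, exons 2741 bp), the gene of STING, was at 31.7, 32.6 and 43.9 CPM in control and 56.7, 51.6 and 54.0 CPM in LPS libraries. The groups did not overlap, though control replicate 3 came closer to the LPS range than the other controls. The increase was 1.50-fold (log2 0.59, SE 0.14, interval 0.23 to 0.94, edgeR adjusted p = 0.0450). This call was lost in more settings than that of any other of the 7 genes. It failed with upper-quartile scaling (edgeR adjusted p = 0.0574), with scaling by library size alone (0.0641) and without a count filter (0.0644), and when any library other than control replicate 3 was left out (adjusted p 0.0636 to 0.164). With both libraries numbered 3 left out the log2 fold change was 0.78 (edgeR adjusted p = 0.000353).

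Mb21d1 (chr9:78430526-78443237, minus strand, exons 4126 bp), the gene of the DNA sensor cGAS, stood at 4.87, 4.42 and 11.4 CPM in control libraries. In LPS libraries it stood at 8.94, 8.85 and 14.3 CPM. Control replicate 3 exceeded LPS replicates 1 and 2, so the groups overlapped, and each library numbered 3 was the highest of its group, as it was for the macrophage markers, whose part was not tested. The log2 fold change was 0.63 (SE 0.43, interval -0.42 to 1.68, edgeR adjusted p = 0.367) and the gene was not called. Leaving out control replicate 3 gave 1.22 (edgeR adjusted p = 0.0503) and leaving out LPS replicate 3 gave 0.36 (edgeR adjusted p = 0.611). Within replicate numbers 1, 2 and 3 the log2 difference was 0.88, 1.00 and 0.33. A gene on the other strand shares 4.87% of its exon bases. With the replicate number as a block it was called (0.72, edgeR adjusted p = 0.0426), as it was with both libraries numbered 3 left out (0.96, edgeR adjusted p = 0.00312). The ratio of Mb21d1 to Tmem173 was 0.110, 0.0977 and 0.178 in control and 0.109, 0.119 and 0.181 in LPS libraries. The mean log2 difference of this ratio was 0.10 (exact permutation p = 0.6, two-sided), unlike the helicase to Mavs ratios in that the groups overlapped.

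Aim2 (chr1:173350879-173466040, plus strand, exons 3501 bp), whose protein binds DNA and assembles an inflammasome, had the widest spread, with a coefficient of variation of 58.6% in control and 76.7% in LPS libraries. It stood at 5.04, 7.92 and 15.9 CPM in control and 7.36, 9.52 and 28.4 CPM in LPS libraries. The libraries numbered 3 held the highest value of each group, 15.9 and 28.4 CPM, and the order of the 3 numbers was that of the macrophage marker sum in both groups; the part of macrophage RNA was not tested. The log2 fold change was 0.65 with an SE of 0.65 (interval -0.95 to 2.24, edgeR adjusted p = 0.546). Within numbers 1, 2 and 3 the log2 difference was 0.55, 0.27 and 0.83, and with the block the gene was called (0.56, edgeR adjusted p = 0.0475). Without LPS replicate 3 the sign turned (-0.20, edgeR adjusted p = 0.814). With both libraries numbered 3 left out it was 0.40 and not called (edgeR adjusted p = 0.237). With the block, 9 of the 10 genes were called higher, against 15.4% of all genes.

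Ifi204 (chr1:173747293-173766943, minus strand, exons 3561 bp), a PYHIN protein known to bind DNA, is a relative of AIM2. Its level was 15.2, 17.7 and 24.7 CPM in control and 217, 258 and 367 CPM in LPS libraries. The groups were far apart, and in each the libraries stood in the order of their macrophage marker sum, highest in replicate 3; with both libraries of that number left out the log2 fold change was 3.88 (edgeR adjusted p = 2.73e-06). The log2 fold change was 3.87 (14.6-fold, SE 0.29, interval 3.16 to 4.58, edgeR adjusted p = 0.00133), and the within-number log2 differences of 3.84, 3.86 and 3.90 differed little. Its 95% interval did not overlap that of Aim2. Of the 50-base words of its transcripts 20.0% occur in other genes, 14.8% in Ifi211, listed here as Mnda, so reads could be split between close copies and the Ifi204 level is uncertain to that extent. Between 15 alternative settings its log2 fold change ranged from 3.63 to 4.11 and it was called in all of them.

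Length-corrected levels allow the genes to be ordered within a condition. The length spans the exons of all annotated transcripts of a gene, so the order depends on that choice. In control libraries the order of CPM per kilobase of exon was Tmem173 (13.1), Mavs (11.2), Eif2ak2 (9.05), Ifi204 (5.39), Ddx58 (5.05), Aim2 (2.75), Ifih1 (2.07), Mb21d1 (1.67), Dhx58 (1.34) and Zbp1 (0.156). On this scale the adaptors STING and MAVS led, whereas in mean control CPM Eif2ak2 (46.3) stood above Mavs (37.4) and Tmem173 (36.0). Per kilobase the first 3 lay above the next gene without overlap between libraries, while each gene from Ifi204 to Mb21d1 overlapped the next. Zbp1 lay apart below all others. In LPS libraries the order of the same quantity was Ifi204 (78.9), Zbp1 (55.1), Ddx58 (48.0), Eif2ak2 (38.9), Dhx58 (24.9), Ifih1 (21.8), Tmem173 (19.7), Mavs (10.6), Aim2 (4.31) and Mb21d1 (2.59). Here the adaptors stood in the seventh and the eighth place, and every pair of neighbours overlapped except Tmem173 with Mavs and Mavs with Aim2.

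The levels of the 10 genes summed to 45.8, 49.2 and 60.5 CPM per kilobase in control libraries and to 250.1, 275 and 389 in LPS libraries. Tmem173 made up 25.4% of the mean sum in control and 6.47% in LPS, and Mavs 21.6% and 3.48%. Ifi204 went from 10.4% to 25.9% and Zbp1 from 0.302% to 18.1%. Mb21d1 and Aim2, the sensors that were not called, made up 0.851% and 1.41% in LPS.

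**Figure D4:**
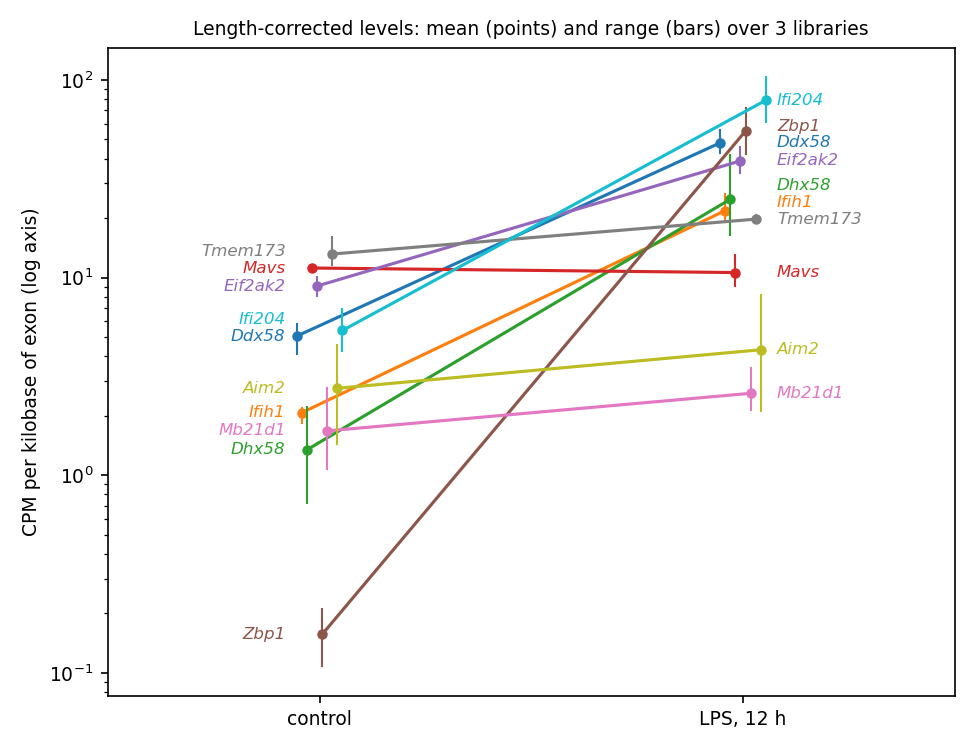
Mean level of each gene in CPM per kilobase of exon (log axis) in control and LPS cultures, joined by a line, with the range over 3 libraries as a bar. Tmem173 and Mavs are the highest in control at 13.1 and 11.2 and are passed in LPS by 6 genes, led by Ifi204 at 78.9.

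Genes that work with these sensors were taken as 6 lists, also chosen with earlier results of these data known. Among regulators and signalling partners of the RIG-I-like receptors, 13 of 22 tested genes were called higher and none lower, with a median log2 fold change of 0.70, against 9.09% of all genes called higher and a median of -0.02. No gene of this list was called lower at an unadjusted p under 0.05, by DESeq2 or by limma-voom. Irf7, a transcription factor of type I interferon genes, went from 4.02, 4.51 and 5.12 CPM to 467, 492 and 954 CPM (log2 7.13, edgeR adjusted p = 0.000418). Ddx60, a helicase proposed to assist RIG-I, went from 1.44, 2.43 and 2.89 CPM to 33.2, 42.0 and 95.4 CPM (log2 4.65, edgeR adjusted p = 0.00515). The kinase gene Ikbke (log2 2.80, edgeR adjusted p = 0.00839) and Trim25, a ubiquitin ligase that acts on RIG-I (log2 1.46, edgeR adjusted p = 0.00453), were called as well, though Ikbke lost its call without control replicate 2 (0.0578). Irf7, Ddx60, Ikbke and Trim25 were each highest in LPS replicate 3, as was the macrophage marker sum. The part of macrophage RNA was not tested. Ifnb1, the interferon-β gene downstream of these sensors, had 17 counts in LPS replicate 3 and 0 in the other libraries and was not tested. Without control replicate 2 the list's count fell to 7, with 2.44% of all genes called higher.

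Among regulators of cGAS and STING and enzymes that clear DNA, 2 of 14 were called higher, against 9.09% of all genes, and the median log2 fold change was -0.08. These were Rhbdf2, which helps STING to leave the endoplasmic reticulum (log2 1.61, edgeR adjusted p = 0.0272), and Trim56, a ubiquitin ligase of the pathway (log2 0.79, edgeR adjusted p = 0.00994). Both calls were lost without control replicate 1 (edgeR adjusted p = 0.102 and 0.0535) and without control replicate 2 (0.121 and 0.0613), and that of Rhbdf2 also without LPS replicate 1 or 2 (0.0599 and 0.0703). edgeR called none lower, with 2 lower at an unadjusted p under 0.05, 1 by DESeq2 and none by limma-voom. With the replicate block 4 were called lower, against 14.9% of all genes, namely Dnase2a, Enpp1, Stim1 and Nlrc3, and 3 higher, against 15.4%, the third being Samhd1 (log2 1.49, edgeR adjusted p = 0.0371), which were named after their values were seen. Trex1, which degrades cytosolic DNA, was listed at 0 in all libraries. Exon overlap with other genes was examined for the 10 members only, so whether counting lost reads of Trex1 was not tested.

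Of 16 genes that handle double-stranded RNA or act with the kinases of eIF2α, 4 were called higher, against 9.09% of all genes, and none lower, with a median of 0.24. Adar, which edits double-stranded RNA and is known to keep MDA5 and protein kinase R from self RNA, stood at 54.4, 54.9 and 61.7 CPM in control and 202, 207 and 244 CPM in LPS libraries (log2 1.93, edgeR adjusted p = 0.000419). Pnpt1 (log2 0.86, edgeR adjusted p = 0.0183), Ddit3 (0.58, 0.00909) and Eif2s1 (0.29, 0.0403), the gene of eIF2α itself, changed less. The Eif2s1 call was lost in 8 of 15 alternative settings, Pnpt1 without control replicate 1 or 2 (edgeR adjusted p = 0.0738 and 0.0874) and Ddit3 without control replicate 2 (0.0654). The count of 4 fell to 2 without control replicate 1 and to 1 without control replicate 2, where 3.03% and 2.44% of all genes were called higher, and was 7 with the block, against 15.4% of all genes. At an unadjusted p under 0.05, 1 gene was lower, and DESeq2 and limma-voom called none lower.

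The other PYHIN genes, neighbours of Aim2 and Ifi204 on chromosome 1, gave the highest median of the 6 lists. Of 9 tested, 8 were called higher, against 9.09% of all genes, with a median log2 fold change of 4.36, that of Pyhin1. Ifi205 went from 0.804, 1.15 and 0.867 CPM to 105, 123 and 89.1 CPM (log2 6.80, edgeR adjusted p = 0.000108). Ifi206, listed as Gm4955, went from 5, 4 and 10 counts to 43.0, 49.6 and 104 CPM (log2 7.90, edgeR adjusted p = 0.00114). Its fold rests on few control counts, at 0.212, 0.177 and 0.413 CPM. Ifi208 and Ifi213, listed as Pydc3 and Pydc4, had at most 4 counts in any control library, and no fold is given for them. Ifi208 stood at 20.8, 28.4 and 60.0 CPM and Ifi213 at 8.44, 11.3 and 53.4 CPM in LPS libraries, highest in replicate 3 as were the macrophage markers, whose part was not tested. The Ifi213 call was lost with limma-voom (adjusted p = 0.0625) and without control replicate 1 or 2 (edgeR adjusted p = 0.0625 and 0.0618). The remaining gene, Ifi207, was not called (log2 1.47, edgeR adjusted p = 0.105) but was with the block (1.50, edgeR adjusted p = 0.00328), with DESeq2 (adjusted p = 0.0186) and with both libraries numbered 3 left out (edgeR adjusted p = 0.000379). No gene of the list was lower at an unadjusted p under 0.05, by DESeq2 or by limma-voom. Close copies in this family can share reads, so single members are uncertain.

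Of 8 effector partners of AIM2 and ZBP1, 2 were called higher, against 9.09% of all genes, with a median of 0.95. Mlkl, whose protein carries out necroptosis, went from 6.86, 7.56 and 8.96 CPM to 65.7, 70.9 and 85.7 CPM (log2 3.25, edgeR adjusted p = 0.0003). Gsdmd, the pore protein of pyroptosis, had a log2 fold change of 1.48 (edgeR adjusted p = 0.0105), and its call was lost without control replicate 1 or 2 (0.0535 and 0.0613). With the block 3 were called higher, against 15.4% of all genes, Casp1 being the third (1.58, edgeR adjusted p = 0.00142), named after its value was seen. None was lower in edgeR, at an unadjusted p under 0.05, by DESeq2 or by limma-voom, and with both libraries numbered 3 left out 6 were called higher, against 22.6% of all genes.

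Of 18 genes of other proteins proposed to sense nucleic acids 1 was called higher, Polr3b of RNA polymerase III (log2 0.46, edgeR adjusted p = 0.0300), and 1 lower, Prkdc, the DNA-dependent kinase (log2 -0.51, edgeR adjusted p = 0.0293), with a median of -0.04. Among all genes 9.09% were called higher and 6.72% lower. The Polr3b call was lost in 8 of 15 alternative settings and that of Prkdc in 5. With the block 4 were called lower, against 14.9% of all genes, the others being Lrrfip1, Xrcc5 and Xrcc6, named after their values were seen.

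**Figure D5:**
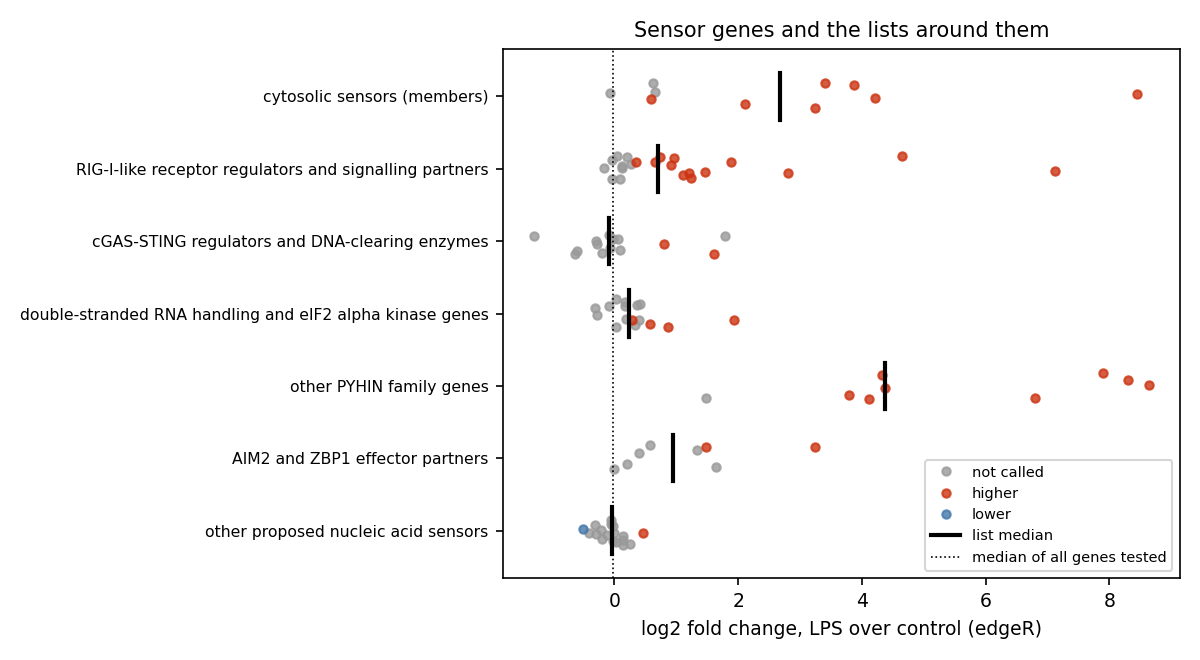
Log2 fold change of LPS over control (edgeR) of each tested gene of the sensors and of the 6 lists around them, red for called higher, blue for called lower and grey for not called, with a bar at the list median and a dotted line at the median of all genes tested. Medians run from -0.08 for cGAS-STING regulators to 4.36 for the other PYHIN genes.

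The promoter letters were also counted in these lists. GAAANNGAAA was present in 9 of 27 list genes with a window that were called higher (33.3%) and in 4 of 49 not called higher (8.16%). A gene counted if any of its windows held the letters, whereas 3.44% is over single windows, so it is no direct background. TTCNNNGAA was in 1 and 6 of the same genes, and the NF-κB consensus in 4 and 5. These shares describe letters in the windows and were not tested.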

How the data were processed

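Poly(A) RNA of 3 control and 3 LPS cultures was sequenced with a stranded kit. Per the labels, the authors trimmed reads (cutadapt 1.15), removed contaminants (Bowtie2 2.3.3.1), mapped them to GRCm38 with STAR 2.5.2b and counted per gene; the submitters' processing notes also name featureCounts 1.5.3. The strand setting of the counting and its treatment of multiply aligned reads are not given in the sources used here. The deposited values are raw counts per gene in 1 file per library, with no pooling, and no 2 libraries held identical values.

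The genes and lists were chosen with earlier results of these data known. Genes with low counts were removed with filterByExpr of edgeR (minimum count 10, minimum total 15), which kept all 10 members, and library composition was corrected with TMM factors of 0.918 to 1.08. LPS and control were compared with the quasi-likelihood F-test of edgeR 4.0.16 (R 4.3.3), two-sided, with Benjamini-Hochberg adjustment over 15226 genes. From each list the called genes with the largest change were named, up to 4, provided that 1 group reached 5 CPM. The test was tried on simulated data first. Exon lengths, coordinates and overlaps come from GENCODE M21, and promoter windows from RefSeq (GRCm38.p6), found for 6 of 10 members. Ratios used CPM per kilobase plus 0.1. Alternatives were other scalings, filters, DESeq2 1.42.0, limma-voom (limma 3.58.1), the replicate number as a block, each library left out, other pseudocounts and, chosen after seeing the data, both libraries numbered 3 left out. After subtraction of group means, libraries of the same number correlated across genes (r = 0.558, 0.371 and 0.629), all above the limit of 0.1 for treating numbers as pairs, and blocked values are given where they change a call of the 10 genes or a count of a list around them. Control 1 with LPS 2 gave 0.449 and control 2 with LPS 1 gave 0.371, so the values set the libraries numbered 3 apart from the rest and do not tell 1 from 2. The labels do not say what the numbers stand for, and the test itself had no block. A count of 3 was taken as the detection floor, which covers counting error only.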

Additional observations from a re-analysis of the deposited data

How the results depend on the processing

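With 3 libraries a group the exact tests cannot pass 0.05, and depth limits Zbp1, Ifi206, Ifi208 and Ifi213 in control libraries. Of the 10 genes, Ddx58, Ifih1, Ifi204 and Eif2ak2 kept direction and call under all 15 alternatives, and Zbp1 under the 14 that tested it (a minimum of 10 counts per library left it out). Upper-quartile scaling and library size alone moved the median of all genes to -0.12 and -0.18, and the share of calls that were higher from 57.5% to 39.8% and 32.4%. Calls over all genes numbered 2407, but 3752 with DESeq2, 4617 with the block and 6657 without both libraries numbered 3, and fell to 664 and 491 when control replicate 1 or 2 was left out and to 843 and 685 when LPS replicate 1 or 2 was, where 2.44% to 3.98% of genes were called higher. The cause of these shifts was not tested.

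Tmem173 fell below the threshold with upper-quartile scaling (0.49), library size alone (0.44) and no count filter (0.57), and ranged from 0.51 to 0.77 over fits leaving out 1 library. Such fits ranged from 3.61 to 4.79 for Dhx58, with the call lost without control replicate 2, from -0.20 to 1.23 for Aim2 (below 0 without LPS replicate 3) and from -0.25 to 0.027 for Mavs (above 0 without LPS replicate 2). Mb21d1 ranged from 0.36 to 1.22 and was called with both libraries numbered 3 left out (0.96).

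The replicate block called Mb21d1 (0.72) and Aim2 (0.56) and changed no other call among the 10 genes. In the lists, pairing gave 3 cGAS-STING genes higher and 4 lower, 9 other PYHIN genes and 3 AIM2 and ZBP1 partners higher, 7 genes of double-stranded RNA handling higher and 4 other proposed sensors lower. For the ratios it left the means as they were, with an exact p of 0.25, the smallest that 3 pairs can give, for the helicases.

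Counts of list genes also moved. Of all genes 10.4% were called lower with upper-quartile scaling, 13.5% with library size alone, 11.0% with DESeq2 and 20.4% without the libraries numbered 3, where 22.6% were called higher. cGAS-STING genes called lower were 1 with library size alone, 1 with DESeq2 and 4 without the libraries numbered 3. Double-stranded RNA genes called higher were 9 without the libraries numbered 3, and 2 were called lower with upper-quartile scaling, library size alone or those libraries left out. Other PYHIN genes called higher were 5 of the 6 tested with at least 10 counts in every library, where 8.71% of all genes were called higher. AIM2 and ZBP1 partners called higher were 6 without the libraries numbered 3. Other proposed sensors called higher were 0 with upper-quartile scaling, library size alone and no count filter. In these settings 6.9%, 6.48% and 4.48% of all genes were called higher. Other proposed sensors called lower were 2, 4, 3 and 4 with upper-quartile scaling, library size alone, DESeq2 and the libraries numbered 3 left out. Leaving out 1 library gave 7 to 12 RIG-I-like receptor partners, 0 to 3 cGAS-STING genes, 1 to 6 double-stranded RNA genes, 1 to 3 AIM2 and ZBP1 partners and 0 to 1 other sensors called higher, and 0 to 2 double-stranded RNA genes and 0 to 1 other sensors called lower. In these fits 2.44% to 12.6% of all genes were called higher and 0.72% to 9.13% lower. Both shares were largest without LPS replicate 3 and smallest without control replicate 2.

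A pseudocount of 1 gave log2 ratio differences of 2.97 for Ifih1 and 3.47 for Dhx58 to Mavs. The difference for Mb21d1 to Tmem173 turned to -0.10 with it, and ranged from -0.13 to 0.36 over fits leaving out 1 library, with -0.08 without control replicate 2 and -0.13 without LPS replicate 3.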
